A study of Homo sapiens with 4 samples.

Results

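The genes of the mevalonate and squalene pathway were examined in DLD-1 human colorectal cancer cells that stably overexpress miR-21. The members were fixed by name as HMGCS1, MVK, PMVK, MVD, IDI1, FDPS, FDFT1 and SQLE. Every probe whose only gene symbol in the platform annotation was a member was used, which gave 10 of 31741 probes and 8 of 18365 genes. IDI1 and FDPS had 2 probes each and the other 6 genes had 1 each. The rule uses no measured value, but the gene group was proposed with earlier results of these arrays known, so its counts are descriptions. No filter on low values was applied, and all 10 probes were tested.

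RNA of DLD-1-miR-21 cells (2 arrays) and of DLD-1-vector cells (2 arrays, labelled DLD-1-miR-Vec) was measured on the single-color Human OneArray Plus. DLD-1 is an established line from a colorectal tumor. The DLD-1-miR-21 cells carried a plasmid encoding human miR-21, and the DLD-1-vector cells its empty control pCMV-MIR. Both lines had been selected with G418 and picked as single clones by the green fluorescent protein reporter. The clones were then pooled, and all cells were kept in G418 without other treatment. Neither labels nor methods state that the 2 arrays of a line were hybridized with RNA of different cultures, and the p-values may therefore rest on technical spread alone. The lines came from separate transfections and clone pools, so effects of miR-21 and of clone origin cannot be told apart here. The mature miRNA is shown because it is the overexpressed agent, with its seed (bases 2 to 8) in capitals. It lies at chr17:59841273-59841294 on the plus strand (RefSeq, GRCh38.p14).
hsa-miR-21-5p: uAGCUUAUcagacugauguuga

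The mevalonate pathway turns acetyl-CoA into isoprenoid units, which are joined to farnesyl diphosphate. From there the carbon goes either to squalene and on to cholesterol, or to dolichol, ubiquinone and the lipid anchors of small GTPases. Most enzymes of the pathway are transcribed under SREBP2, a membrane-bound transcription factor that is released when the sterol content of the endoplasmic reticulum falls, and they are known to rise and fall together in cells given or deprived of sterol.

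The deposited values were linear intensities that had not been made comparable between arrays. Median intensities were 255 and 339 for DLD-1-miR-21, against 571 for both DLD-1-vector arrays. They were therefore quantile-normalized, which gives all arrays the same distribution, and log2 was taken after 50 had been added. A log2 ratio is the mean of the DLD-1-miR-21 arrays minus that of the DLD-1-vector arrays on that scale, and its median over all probes was 0.07. Without normalization this median was -0.63, so each direction below is relative to the other probes of an array and not to the cell. The study had checked the lines by qPCR of miR-21, and had found its target PDCD4 lower as mRNA and protein. On these arrays PDCD4 had a log2 ratio of -0.65 on a dim probe (adjusted p = 0.0225 from limma) and of -0.08 on its brighter probe (adjusted p = 0.617). Of 10 probes for colorectal epithelial markers, 7 exceeded the array median on all 4 arrays, EPCAM, CDH1 and KRT19 among them. Of these 10 probes 2 were lower, EPCAM at -1.12 and KRT8 at -1.17, and 4 were higher, VIL1 at 1.58, KRT20 at 1.28, CEACAM5 at 0.92 and CDX1 at 0.57. CEACAM5 lay under the median of every array, and without normalization between arrays CDX1 passed as lower (-0.63, adjusted p = 0.0349 from limma). The summed deposited intensity of the 10 epithelial probes was 144233 to 151607 in DLD-1-miR-21 cells and 294939 to 332546 in DLD-1-vector cells. Such sums are not scaled between arrays, whose medians were also lower in DLD-1-miR-21 cells. A signal above the median on all arrays was found for 2 of 11 mesenchymal, 1 of 6 blood cell and 0 of 6 hepatocyte marker probes. Of the mesenchymal probes, 4 were lower and 2 higher, and their summed deposited intensity was 8241 to 10734 in DLD-1-miR-21 cells and 26161 to 27480 in DLD-1-vector cells. The part of such markers in the results was not tested.

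In DLD-1-miR-21 cells FDPS, SQLE, MVK and PMVK were lower, at log2 ratios from -3.76 to -1.16, whereas HMGCS1, MVD, IDI1 and FDFT1 did not pass the test in either direction. In all, 5 of 10 member probes were lower at an adjusted p under 0.05 and 0 were higher, and these 5 belonged to 4 genes. Differences between genes were not tested. Over all probes, 21.8% were lower and 23.0% were higher by the same rule. The member probes had a median log2 ratio of -0.68, although none of them lay between -1.16 and -0.21. By the thresholds of the study's methods, a log2 ratio of at least 1 in size and an unadjusted p under 0.05, again 5 member probes were lower and 0 higher, where 12.3% of all probes were lower and 10.5% higher. On 6 member probes both DLD-1-miR-21 arrays lay below both DLD-1-vector arrays, and on 2 they lay above. Such a separation was frequent on these arrays, at 34.8% of all probes for lower and 41.4% for higher.

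**Figure D1:**
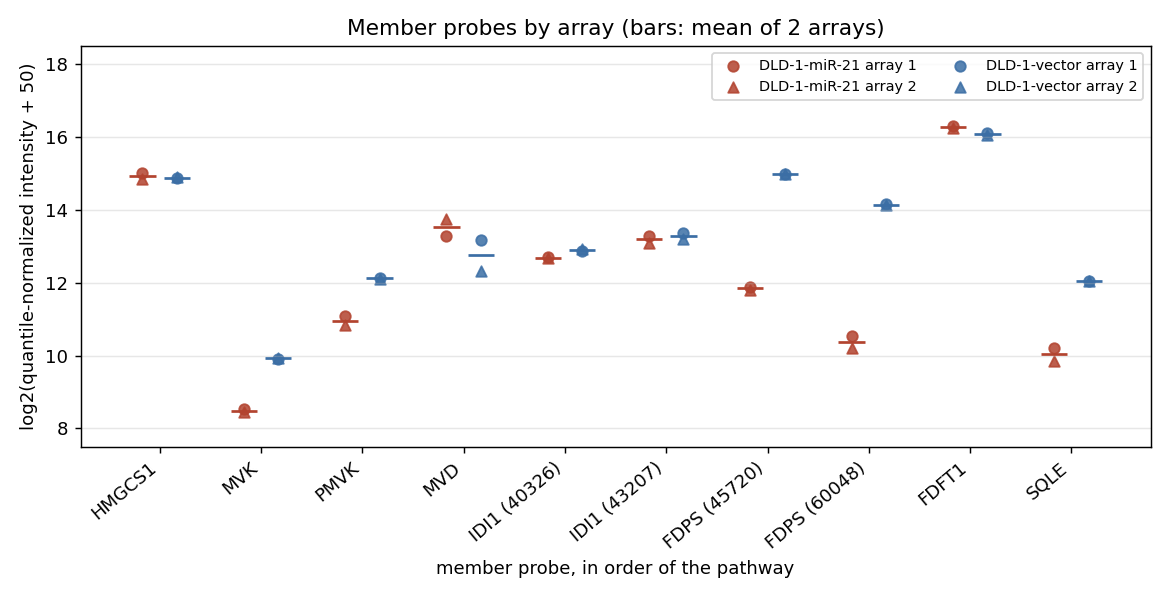
Log2(quantile-normalized intensity + 50) of the 10 member probes (vertical axis) in order of the pathway (horizontal axis), with DLD-1-miR-21 arrays in red on the left and DLD-1-vector arrays in blue on the right of each pair. Points are single arrays and bars are means of 2 arrays, and levels are not comparable between probes. The red points of both FDPS probes lie between 10.22 and 11.87, below blue points between 14.14 and 14.99, while HMGCS1 overlaps between the lines.

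HMGCS1 makes HMG-CoA from acetoacetyl-CoA and acetyl-CoA. Its log2 signal was 15.02 and 14.84 in DLD-1-miR-21 cells, against 14.87 and 14.90 in DLD-1-vector cells. The arrays of the lines overlapped, and the log2 ratio was 0.05 (95% confidence interval -0.30 to 0.39, adjusted p = 0.791 from limma). The deposited intensities of this probe were 20517 and 18566 in DLD-1-miR-21 cells, against 39592 and 43683 in DLD-1-vector cells. The direction of HMGCS1 therefore turned with the scaling, at -1.09 without normalization between arrays, -0.24 with median centring and -0.07 with cyclic loess, and only the value without normalization passed the test (adjusted p = 0.0072 from limma).

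MVK and PMVK phosphorylate mevalonate and phosphomevalonate in turn. MVK had log2 signals of 8.53 and 8.44 in DLD-1-miR-21 cells, against 9.90 and 9.95 in DLD-1-vector cells. PMVK had 11.07 and 10.84 in DLD-1-miR-21 cells, against 12.13 and 12.10 in DLD-1-vector cells. On both probes the arrays of the lines were well apart, and the difference exceeded the gap between arrays of a line. The log2 ratio was -1.44 for MVK (standard error 0.12, adjusted p = 0.00301 from limma), a 2.71-fold lower value. For PMVK it was -1.16 (standard error 0.14, adjusted p = 0.00585 from limma), a 2.23-fold lower value. MVK was the only member probe below the median of any of its arrays. Its deposited intensities of 195 and 250 in DLD-1-miR-21 cells lay under the medians of those arrays, against 1228 and 1307 in DLD-1-vector cells, so the added 50 draws its ratio toward 0.

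MVD decarboxylates mevalonate diphosphate to isopentenyl diphosphate, the first isoprenoid unit. It was the least reproducible member. Its log2 signals were 13.28 and 13.76 in DLD-1-miR-21 cells, against 13.18 and 12.31 in DLD-1-vector cells. The DLD-1-miR-21 arrays lay above both DLD-1-vector arrays, but the DLD-1-vector arrays differed by more than the lines did on their nearest arrays. The log2 ratio of 0.77 had a 95% confidence interval of -0.17 to 1.71 and did not pass (adjusted p = 0.141 from limma). Its size depended on which DLD-1-vector array was used. Without DLD-1-vector replicate 2, the lower of the pair, it was 0.33 (adjusted p = 0.382 from limma), and without DLD-1-vector replicate 1 it was 1.22 and passed (adjusted p = 0.0296 from limma). The sign of MVD turned without normalization between arrays (-0.45, adjusted p = 0.362 from limma).

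IDI1 interconverts isopentenyl and dimethylallyl diphosphate. The first of its probes (40326 in the plots) had log2 signals of 12.70 and 12.67 in DLD-1-miR-21 cells, against 12.87 and 12.92 in DLD-1-vector cells. The other (43207) had 13.29 and 13.08 in DLD-1-miR-21 cells, against 13.37 and 13.20 in DLD-1-vector cells. The first probe separated the lines by a small step and the second overlapped. Their log2 ratios were -0.21 (95% confidence interval -0.52 to 0.10, adjusted p = 0.204 from limma) and -0.10 (-0.49 to 0.29, adjusted p = 0.601). The probes of IDI1 did not differ detectably from each other, with a difference of 0.11 in log2 ratio (95% confidence interval -0.39 to 0.61, adjusted p = 0.662 from limma on within-array differences). The first probe passed as lower with median centring (-0.61, adjusted p = 0.043 from limma), and both passed as lower without normalization between arrays (-1.46 and -1.34).

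FDPS, farnesyl diphosphate synthase, stands at the branch point between sterols and the other isoprenoids. It showed the largest change of the 8 genes. Its brighter probe (45720) had deposited intensities of 1963 and 2193 in DLD-1-miR-21 cells, against 42691 and 45958 in DLD-1-vector cells. Its other probe (60048) had 776 and 778 in DLD-1-miR-21 cells, against 24340 and 26379 in DLD-1-vector cells. All of these values exceeded the median of their own array, so FDPS remained measurable in DLD-1-miR-21 cells. After normalization the brighter probe averaged 11.84 ± 0.04 in DLD-1-miR-21 cells and 14.98 ± 0.01 in DLD-1-vector cells (log2, SD, n = 2 each), and the other 10.38 ± 0.23 in DLD-1-miR-21 cells and 14.14 ± 0.01 in DLD-1-vector cells. The log2 ratios were -3.14 (standard error 0.12) and -3.76 (standard error 0.16), with an adjusted p of 0.00196 from limma for both probes. These correspond to 8.82-fold and 13.6-fold lower values. Of all probes, 0.422% and 0.142% had a lower log2 ratio than the brighter and the other FDPS probe.

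Both FDPS probes thus fell. The difference between their log2 ratios was 0.62 (95% confidence interval 0.12 to 1.12) and did not pass the threshold (adjusted p = 0.0533 from limma). It passed when the dimmest 25% or 50% of probes were left out (adjusted p = 0.0421 and 0.03) or when 100 was added in place of 50 (0.59, adjusted p = 0.0459). Of 6375 pairs of probes for the same gene, 45.4% differed in log2 ratio by this test. Without normalization between arrays the log2 ratios of FDPS were -4.38 and -4.94, and with median centring -3.53 and -4.09.

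The FDPS probe with the smallest log2 ratio was compared with all other single-symbol probes by the Euclidean distance between centred log2 values over the 4 arrays. The nearest were probes of HRAS, a small GTPase (distance 0.078), EEF1A1, a translation elongation factor (0.11), and NUDCD2 (0.12), with log2 ratios of -3.72, -3.80 and -3.73. The probe with the largest log2 ratio, that of MVD, lay nearest to probes of C1orf68 (0.059), HTT (0.065) and KRTDAP (0.068), none of which passed the test. With 4 arrays, such a likeness states little beyond a log2 ratio of similar size.

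FDFT1 is squalene synthase, which joins farnesyl diphosphate head to head and commits it to sterols. Its log2 signal was 16.30 and 16.24 in DLD-1-miR-21 cells, against 16.12 and 16.05 in DLD-1-vector cells. The arrays of the lines were apart, but by little. The log2 ratio of 0.18 (95% confidence interval -0.14 to 0.50) did not pass (adjusted p = 0.272 from limma), and its sign turned without normalization between arrays, at -0.81 (adjusted p = 0.0143 from limma). The deposited intensities of FDFT1 were 53542 and 52309 in DLD-1-miR-21 cells, against 92117 and 93761 in DLD-1-vector cells.

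SQLE, squalene epoxidase, adds oxygen to squalene in a rate-limiting step of the sterol branch. Its deposited intensities were 608 and 618 in DLD-1-miR-21 cells, against 5772 and 6178 in DLD-1-vector cells. Its log2 signal averaged 10.03 ± 0.24 in DLD-1-miR-21 cells and 12.05 ± 0.00054 in DLD-1-vector cells (SD, n = 2 each). The arrays of the lines did not approach each other. The log2 ratio was -2.03 (standard error 0.16, adjusted p = 0.00282 from limma), a 4.07-fold lower value. FDPS and SQLE, directly before and after FDFT1 in the pathway, thus fell, and FDFT1 did not pass the test.

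**Figure D2:**
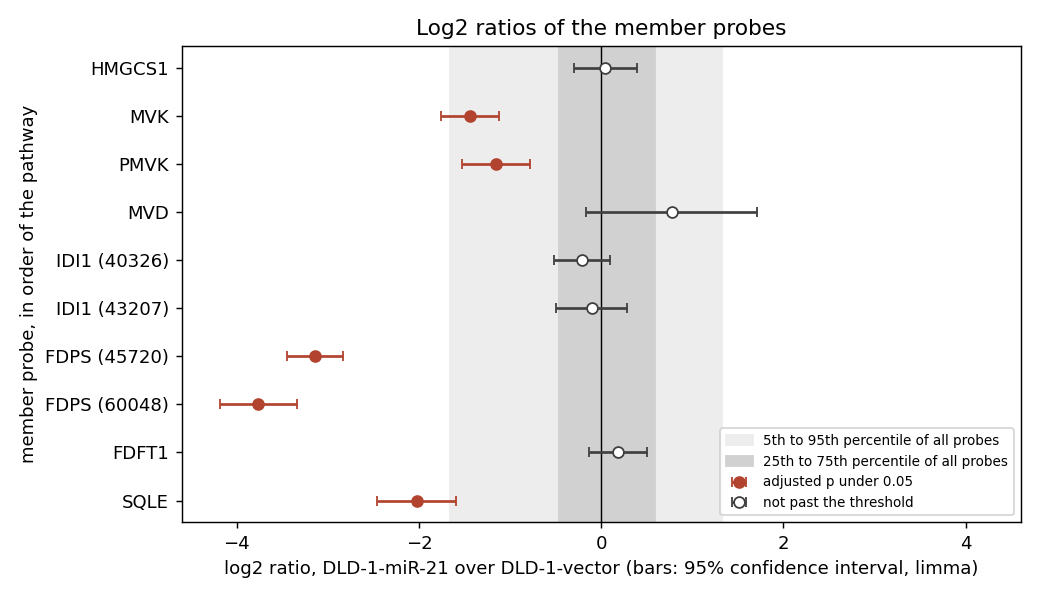
Log2 ratio, DLD-1-miR-21 minus DLD-1-vector (horizontal axis) for the member probes from the start of the pathway at the top to SQLE at the bottom. Bars are 95% confidence intervals from limma, filled red points have an adjusted p under 0.05, and the gray bands hold the middle of all probes. The FDPS probes at -3.14 and -3.76 and SQLE at -2.03 lie below the wider band, MVK at -1.44 and PMVK at -1.16 lie within it, and the interval of MVD is the widest.

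FDPS, SQLE, MVK and PMVK passed as lower under all 4 scalings. They were lost only when DLD-1-miR-21 replicate 2 was left out, where 0 of 31741 probes passed and the smallest adjusted p from limma was 0.0551. The log2 ratios there were -3.11 and -3.62 for FDPS, -1.89 for SQLE, -1.45 for MVK and -1.05 for PMVK. With a single DLD-1-miR-21 array left, its spread was assumed to be that of the DLD-1-vector arrays.

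**Figure D3:**
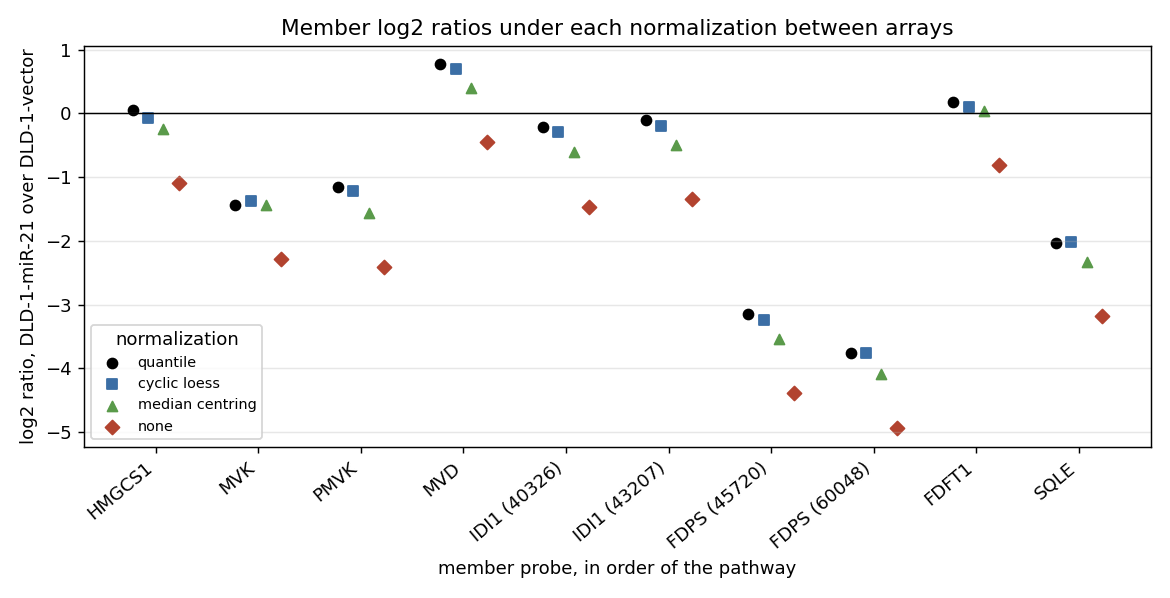
Log2 ratio, DLD-1-miR-21 minus DLD-1-vector (vertical axis) of each member probe (horizontal axis) under quantile normalization, cyclic loess, median centring and no normalization between arrays. FDPS, SQLE, MVK and PMVK stay below 0 under all 4, while HMGCS1, MVD and FDFT1 turn from 0.05, 0.77 and 0.18 to -1.09, -0.45 and -0.81 without normalization.

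Promoters of 6 members were held by the RefSeq table (GRCh38.p14), with 9 start sites in all, and FDFT1 and SQLE were not among them. The 250 bases before each start site were searched on both strands for CCAAT, the box bound by NF-Y, for GGGCGG, the GC box bound by Sp1 proteins, and for TCACNCCAC, a core of the sterol regulatory element. No motif contains another, although neighbouring matches can share end bases. NF-Y and Sp1 are known partners of SREBP2 at such promoters. A promoter of the gene with the largest change, FDPS, is shown beside those of HMGCS1 (the first of 2 start sites) and MVD, which did not pass. Capitals mark CCAAT or its reverse complement. The stretches are chr1:155308616-155308865 on the plus strand for FDPS, chr5:43313413-43313662 on the minus strand for HMGCS1, and chr16:88663092-88663341 on the minus strand for MVD.
FDPS: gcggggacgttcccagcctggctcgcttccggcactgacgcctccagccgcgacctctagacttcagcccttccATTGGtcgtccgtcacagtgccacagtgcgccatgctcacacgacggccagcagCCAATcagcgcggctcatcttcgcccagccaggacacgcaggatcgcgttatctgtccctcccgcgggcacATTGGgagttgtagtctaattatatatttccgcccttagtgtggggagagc
HMGCS1: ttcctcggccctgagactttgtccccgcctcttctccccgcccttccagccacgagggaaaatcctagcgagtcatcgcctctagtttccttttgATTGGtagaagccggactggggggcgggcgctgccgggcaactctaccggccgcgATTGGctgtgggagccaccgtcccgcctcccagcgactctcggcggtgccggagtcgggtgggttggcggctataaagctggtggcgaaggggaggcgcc
MVD: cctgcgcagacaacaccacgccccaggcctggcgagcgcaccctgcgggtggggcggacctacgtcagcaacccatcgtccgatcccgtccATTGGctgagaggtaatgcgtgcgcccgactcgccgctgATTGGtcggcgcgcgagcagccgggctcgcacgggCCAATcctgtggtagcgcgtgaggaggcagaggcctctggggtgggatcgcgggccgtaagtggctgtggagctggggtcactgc

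CCAAT occurred 3 times in the FDPS window, 3 times in that of MVD, 2 times in the HMGCS1 window shown and 5 times in that of MVK. The 3 windows of IDI1 held it 0, 3 and 2 times. It did not occur in the PMVK window or in the other HMGCS1 window. Windows with and without it thus occurred both among members that fell and among members that did not pass. Of all 35116 windows in the table, 11240 held CCAAT at least 1 time and 9.53% held it at least 2 times. GGGCGG was found in all 9 member windows, where 42.6% of all windows held it. TCACNCCAC was found in 0 of the 9 and in 0.883% of all windows. A match is a description of the letters only, and its absence states nothing about binding.

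Further along the route, 15 probes covered 11 of the 13 other genes listed for sterol synthesis, of which 6 were lower, 3 higher and 6 did not pass, with a median log2 ratio of 0.10. ACAT2, the thiolase that supplies acetoacetyl-CoA to HMGCS1, was lower on both of its probes, but to a different extent, at -0.61 and -2.91 (difference 2.29, adjusted p = 0.003 from limma). HSD17B7 and EBP, enzymes of the later sterol steps, had log2 ratios of -2.19 (standard error 0.13) and -1.06 (standard error 0.13). HSD17B7 had deposited intensities of 412 and 530 in DLD-1-miR-21 cells, against 5185 and 4928 in DLD-1-vector cells. The sterol desaturase SC5D (annotated as SC5DL) at 1.11 and 0.65 on its 2 probes and the sterol reductase TM7SF2 at 0.76 were higher. Without normalization between arrays these values were -0.13, -0.60 and -0.48, and the SC5D probe at -0.60 passed as lower (adjusted p = 0.0458 from limma). With median centring that probe (0.25) and TM7SF2 (0.37) did not pass. This list thus held calls in both directions, whereas no member passed as higher. The share of lower probes was 40% in this list and 50% among the members. For this list and those below, 21.8% of all probes were lower and 23.0% higher by the same rule. The lower calls of the sterol synthesis list numbered 3 when either DLD-1-vector array or DLD-1-miR-21 replicate 1 was left out. Its higher calls numbered 1 without DLD-1-miR-21 replicate 1. Without DLD-1-miR-21 replicate 2 no probe of any list passed.

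Among genes that use isoprenoids for other products, 14 probes of 13 genes had 6 lower and 5 higher, with a median of -0.07. RCE1 and ICMT, which trim and methylate prenylated proteins, were lower at -2.27 (standard error 0.15) and -1.44 (standard error 0.15). DHDDS and NUS1 form the enzyme that builds the dolichol chain, and they differed in direction, with DHDDS lower at -1.48 and NUS1 higher at 1.12. FNTA, the subunit shared by farnesyl and geranylgeranyl transferases, was higher at 0.90. GGPS1, which extends farnesyl to geranylgeranyl diphosphate, was higher on its brighter probe at 0.94 and lower on the other at -0.80 (difference 1.74, adjusted p = 0.00496 from limma), so no direction can be given for it. Without normalization between arrays NUS1, FNTA and the brighter GGPS1 probe had -0.12, -0.25 and -0.31. With median centring FNTA (0.60) and both GGPS1 probes (0.54 and -0.37) did not pass. The higher calls of this list numbered 0 without DLD-1-miR-21 replicate 1 and 3 without either DLD-1-vector array.

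Of the genes that control SREBP activity, 13 were measured by 22 probes, of which 7 were lower, 3 higher and 12 did not pass (median -0.05). SREBF2 encodes SREBP2. Its single probe had deposited intensities of 120 and 171 in DLD-1-miR-21 cells, under the medians of those arrays, against 1721 and 1887 in DLD-1-vector cells. The log2 ratio of SREBF2 was -2.52 (standard error 0.12, adjusted p = 0.00196 from limma), and it was -2.35 or lower under all 4 scalings. SREBF1, which encodes the SREBP1 forms, had 0.69 on its brighter probe and -1.43 on the other, both past the threshold and different from each other (2.11, adjusted p = 0.00319 from limma). The brighter SREBF1 probe did not pass with median centring (0.35) or without normalization between arrays (-0.50). The other SREBF1 probe passed as lower under all 4 scalings. The NF-Y subunit NFYA was higher at 1.29, and NFYC had probes in both directions. Of its 4 probes, those at -0.78 and -0.76 passed as lower and one at 0.68, with at most 78 intensity units on any array, passed as higher. The remaining NFYC probe, above the median of all 4 arrays, had 0.66 and did not pass (adjusted p = 0.0567 from limma), but differed from the brightest NFYC probe, that at -0.78 (adjusted p = 0.01 from limma). Of the SREBP control probes, 3 were lower when either DLD-1-vector array or DLD-1-miR-21 replicate 1 was left out, and 1 was higher without DLD-1-miR-21 replicate 1.

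Genes of cholesterol uptake, transport, storage and efflux had 21 probes for 15 genes, with 6 lower and 7 higher (median 0.09). NPC1 and NPC2, which export cholesterol from lysosomes, were lower, NPC1 at -2.59 (standard error 0.17) and NPC2 at -1.12 and -0.65 on its 2 probes. OSBP, a sterol transfer protein, was higher at 1.36. SOAT1, which esterifies cholesterol for storage, was higher on 2 probes at 1.44 and 1.35 and lower on another at -0.74, and the liver X receptor NR1H3 was lower at -1.19 and higher at 0.56. Under quantile normalization, probes of SOAT1 and of NR1H3 were thus called in both directions. The NR1H3 probe at 0.56 did not pass with median centring (0.13). It passed as lower without normalization between arrays (-0.72, adjusted p = 0.0292 from limma). Of the SREBP1-driven genes of fatty acid synthesis, 21 probes of 14 genes had 5 lower and 6 higher (median -0.0032). ACSS2 at 0.96 and ACLY at 0.78, which make cytosolic acetyl-CoA, and ACACB at 0.76 on one probe were higher. The brighter ACACB probe had 0.43 and did not pass (adjusted p = 0.087 from limma). With median centring the ACLY probe at 0.78 did not pass (0.57). FADS1 at -0.70 and ACACA at -0.62 were lower. ME1 was lower on one probe at -0.75, but its brighter probe had 0.25 (adjusted p = 0.226 from limma), and the ME1 probes differed by 1.01 (adjusted p = 0.0144 from limma). No probe of this list reached a log2 ratio of 1 in size. Its calls depended on single arrays, with 0 lower and 3 higher without DLD-1-vector replicate 2, 2 lower and 3 higher without DLD-1-vector replicate 1, and 1 lower and 1 higher without DLD-1-miR-21 replicate 1. The cholesterol traffic list had 2 lower without DLD-1-miR-21 replicate 1. Without normalization between arrays, 0 probes in any of the 5 lists passed as higher.

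**Figure D4:**
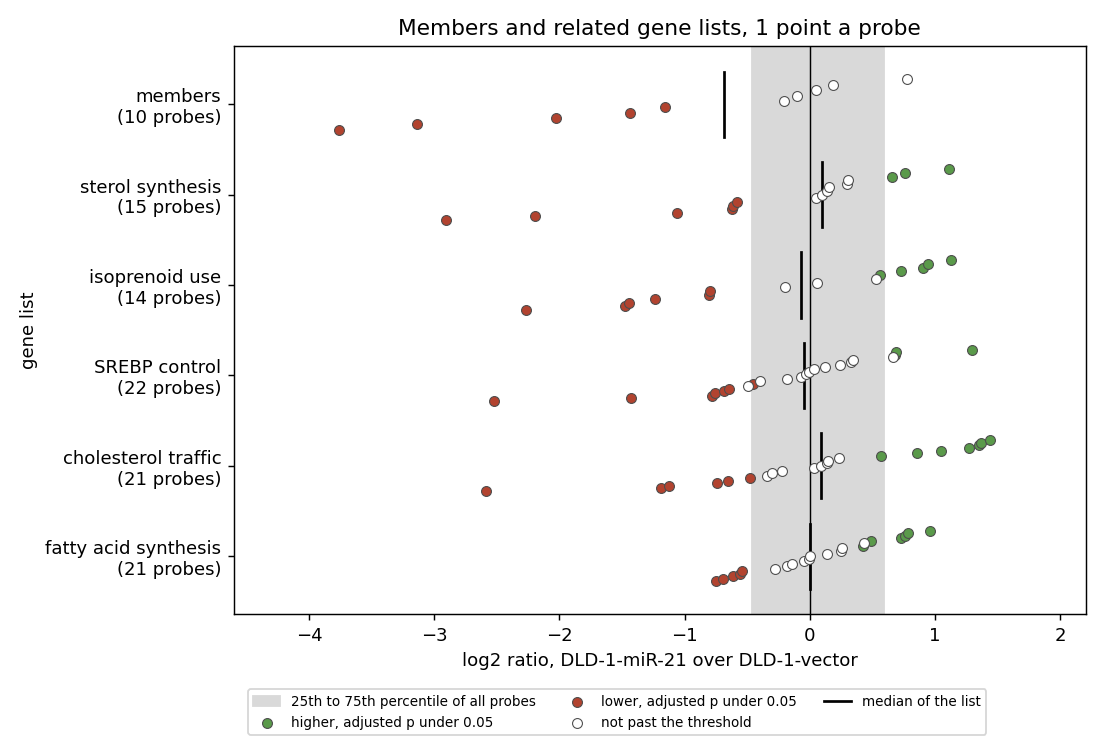
Log2 ratio, DLD-1-miR-21 minus DLD-1-vector (horizontal axis) of each probe of the members and of 5 related gene lists (vertical axis). Green points are higher and red points lower at an adjusted p under 0.05, open points did not pass, black lines are medians and the gray band holds the middle of all probes. The members have 5 lower and 0 higher probes and a median of -0.68. Each other list holds calls in both directions under quantile normalization and has a median between -0.07 and 0.10. Without normalization none of these lists has a higher call. Lower probes make up 50% of the members, 42.9% of the isoprenoid use list and 40% of the sterol synthesis list. In the remaining lists they make up 23.8% to 31.8%. Of all probes, 21.8% were lower and 23.0% higher by the same rule. The members were chosen with earlier results of these arrays known.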

How the data were processed

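The authors amplified total RNA, labelled it with Cy5 and hybridized it to Human OneArray Plus arrays. The deposited table holds 1 linear intensity per probe and array, with background subtracted, since some values are below 0. The sources used here name no scanner, extraction software or background method. The number of arrays limits the precision. Intensities were quantile-normalized, 50 was added, and log2 values were fitted by group with lmFit and eBayes (limma 3.58.1, R 4.3.3; 2 residual and 2.48 prior degrees of freedom). P-values were adjusted by Benjamini-Hochberg over all 31741 probes. An exact permutation test of 2 against 2 arrays cannot go below p = 0.333 and was not used. Differences between probes of a gene were fitted in the same way on within-array differences. Symbols came from the platform annotation, with 24740 probes of 1 symbol, 977 of several and 6024 of none. Genes listed without a probe of their own were not analysed here, and probe sequences were not used, so cross-hybridization to related genes or pseudogenes was not tested. All member probes are named, and from each list up to 3 higher and 3 lower probes past the threshold with separated lines. The members and lists were chosen with earlier results of these data known, and offset and normalization follow an earlier analysis. Scripts were checked on simulated arrays. Promoters and the miRNA came from RefSeq. Plots were drawn with matplotlib 3.10.9.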

Additional observations from a re-analysis of the deposited data

How the results depend on the processing

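The lower values of FDPS, SQLE, MVK and PMVK kept their direction under every alternative run and passed in all but one, the fit without DLD-1-miR-21 replicate 2. Leaving out each array gave 0 to 5 member probes lower and 0 to 1 higher (MVD, without DLD-1-vector replicate 1), 0 to 5978 of all probes lower and 0 to 6702 higher, and 0 to 3159 pairs of probes of a gene that differed, against 2892 with all arrays. Without DLD-1-miR-21 replicate 1 the counts were 3784 lower, 1721 higher and 1037 pairs, and without DLD-1-vector replicate 2 they were 4528 higher. Without normalization between arrays, 9 member probes were lower, 14025 of all probes were lower and 416 higher, against 6912 and 7294, and HMGCS1 and FDFT1 turned to -1.09 and -0.81. The thresholds of the study gave 3909 lower and 3320 higher. Without the dimmest 50% of probes, where fewer were tested, 4434 were lower, 4692 higher and 1341 pairs differed. With the replicate number as a block, 5 member probes were lower and 0 higher, with 5744 of all probes lower and 5678 higher. The labels give same-numbered arrays only a shared number, and their deviations correlated with r = -0.0685 over probes. With 1 such pair of deviations, this value cannot show whether same-numbered arrays shared a culture, day or slide. Under this replicate block 3 sterol synthesis probes and 4 SREBP control probes were lower, against 6 and 7, and fatty acid synthesis had 2 lower and 2 higher, against 5 and 6. Leaving out the dimmest 25% or 50% of probes, other offsets (26 and 100), a floor of 32, cyclic loess, and a variance trend with robust estimation each left 5 member probes lower and 0 higher, and median centring gave 6 lower. The alternatives for pairs of probes were added after seeing the data. Intensity below the array median limits MVK and SREBF2, and likewise NPC1, RCE1, DHDDS and the lower NR1H3 probe in DLD-1-miR-21 cells. FADS1 and the ACACA probe at -0.62 lay below it on all 4 arrays, and neither passed with median centring (-0.24 and -0.12). The added 50 draws such ratios toward 0.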
